A study of Rattus norvegicus with 9 samples.

Results

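The genes described here are those of the cornified envelope and of terminal epidermal differentiation, measured in the skin of old and young male rats of the Wistar strain, which is outbred and albino. Polyadenylated RNA came from 4 old animals of 24 months and 5 young animals of 6 months, each sample a different animal, with no treatment or genetic change named. Neither the body site nor the depth of the biopsies is stated in the sources used here. The set was defined by name, as every symbol beginning with SPRR or LCE together with 17 named genes. It came to 24 of the 23480 symbols in the count table. Of these, 23 matched by name and 1, CALM4, is listed under its current name CALML5. CRCT1 is not analysed here. Of the 24, 22 had enough counts to be tested. LCE3D had 0 to 4 counts per library and SPRR3 had 0 counts in all 9. If reads could be assigned to SPRR3, its approximate upper limit was 0.204 counts per 1000000 reads (CPM) in the shallowest library. Whether they could is not known, as the annotation and counting rule are unnamed.

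The cornified envelope is the protein shell that replaces the plasma membrane when a keratinocyte dies at the skin surface. Involucrin, loricrin, small proline-rich proteins and late cornified envelope proteins are its building blocks, and transglutaminases cross-link them. Filaggrin packs keratin filaments and is then broken down, with caspase-14 taking part, while the protease KLK7 loosens the joints between surface cells and LEKTI, the product of SPINK5, holds such proteases in check. Grainyhead-like factors and OVOL1 act upstream in keratinocyte differentiation.

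The deposited counts summed to between 20.1 and 34.1 M in old libraries, where M stands for 1000000, and to between 17.3 and 20.2 M in young libraries. Every count in old replicates 1 and 3 was a multiple of 2, whereas 48.1 to 48.4% of the nonzero counts in the other libraries were even. If each read of those 2 libraries was entered 2 times, old libraries held 14.7 to 25 M reads, a range that takes in the young one. CPM values are unchanged by this. With the counts of both libraries divided by 2, 8 cornified envelope genes fell, as with the deposited counts. Skin identity was clear from KRT5, KRT14, KRT1 and KRT10, whose lowest value in any library was 1498 CPM. However, 16 skeletal muscle marker genes alone took 2.76 to 13.0% of counts in old and 6.69 to 13.9% in young libraries. Fewer cells of a type and less RNA per cell cannot be told apart in such bulk samples.

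Cornified envelope genes were lower in old skin in part. Of 22 tested, 8 fell and 0 rose (edgeR quasi-likelihood test, Benjamini-Hochberg adjusted p under 0.05), where 4.41% of all 14933 genes tested fell and 9.62% rose. The genes that fell were CASP14, TGM3, LCE1F, KLK7, CALML5, CNFN, IVL and TGM1, with log2 fold changes of -2.36 to -0.77. At an unadjusted p under 0.05, 13 of the 22 were lower, as were 13.3% of all genes, and 0 were higher. DESeq2 called 12 falls and 0 rises among the 22, where it called 8.57% of all genes as falls and 12.9% as rises. The median log2 fold change of the 22 genes was -0.82, against -0.05 over all genes tested, and 20 of the 22 values were negative. In 6 genes every old animal lay below every young animal, which held for 6.51% of all genes tested. Single libraries weighed on the count of 8, which dropped to 5 when young replicate 3 was left out, to 5 when young replicate 4 was, and to 3 when old replicate 4 was. The share of all genes that fell dropped as well, from 4.41% to 2.5%, 2.13% and 1.57% in these fits. CASP14, TGM3 and IVL kept their calls without any one library. With library totals alone as the scaling, 5 fell, where 2.09% of all genes did, and the median of all genes moved to 0.11.

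**Figure D1:**
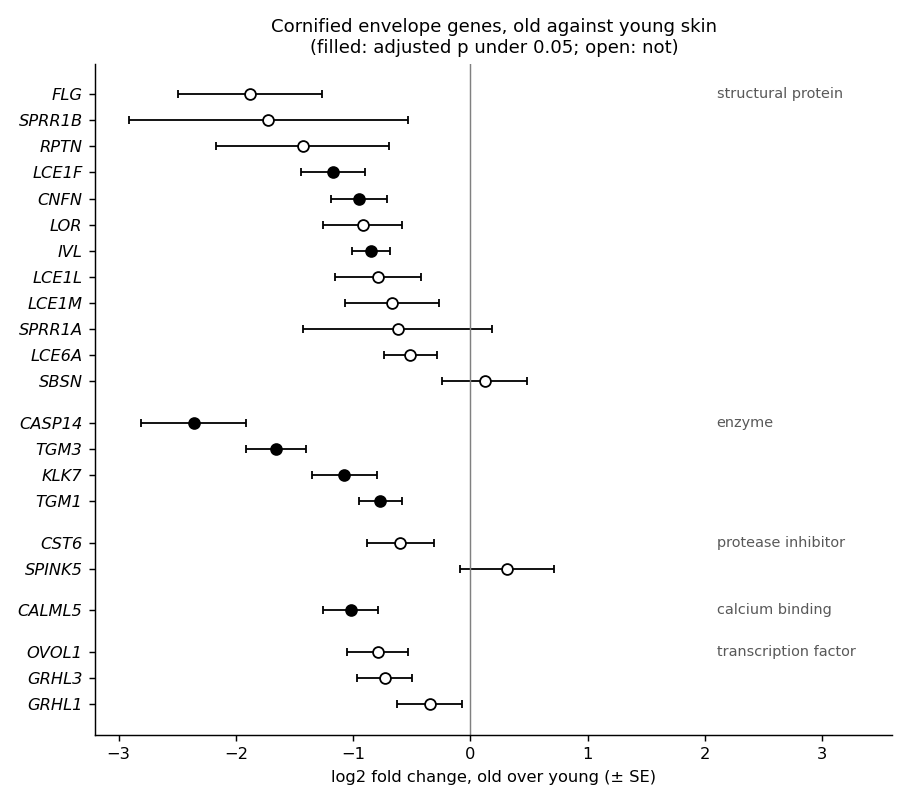
Log2 fold change, old over young skin, with its SE (x axis) for the 22 cornified envelope genes tested, grouped by the kind of protein; filled points passed an adjusted p of 0.05 and open points did not. All 4 enzymes are filled, from -2.36 for CASP14 to -0.77 for TGM1, and SBSN and SPINK5 are the genes to the right of 0.

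All 4 enzymes tested fell in old skin, where 4.41% of all genes tested fell. TGM3, a transglutaminase of the upper epidermis and the hair follicle that cross-links envelope proteins, had 118, 124, 134 and 110 CPM in old animals (replicates 1 to 4), against 238, 381, 618, 301 and 375 CPM in young animals (replicates 1 to 5). The 4 old values were tightly grouped and all below the lowest young one. Its log2 fold change was -1.66 ± 0.26 (SE; n = 4 old, n = 5 young; edgeR adjusted p = 0.0035). TGM1, the membrane-bound transglutaminase of granular keratinocytes, had 88.8, 60.0, 97.3 and 62.9 CPM in old animals, against 155, 119, 151, 123 and 108 CPM in young animals. These groups did not overlap either, though the highest old animal lay close under the lowest young one (-0.77 ± 0.18, edgeR adjusted p = 0.022). TGM1 no longer passed when young replicate 1, 3 or 4, or the fourth old animal, was left out, with adjusted p up to 0.0917.

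CASP14, the caspase of cornifying keratinocytes that takes part in breaking down filaggrin, had 35.6, 71.6, 19.3 and 20.7 CPM in old animals, against 102, 197, 279, 159 and 207 CPM in young animals. The groups did not overlap, and old replicates 3 and 4 lay lowest. Its change was the largest among the genes that fell, -2.36 ± 0.44 (edgeR adjusted p = 0.0079). Without both libraries of even counts the value was -2 and did not pass (adjusted p = 0.0624). KLK7, a kallikrein protease that cuts the corneodesmosomes holding surface cells together, had 210, 211, 365 and 165 CPM in old animals, against 325, 557, 686, 469 and 469 CPM in young animals. Old replicate 3 lay above young replicate 1, and the other old animals lay below the young range. The log2 fold change was -1.08 ± 0.28 (edgeR adjusted p = 0.029). KLK7 did not pass when young replicate 2, 3 or 4 was left out, nor without old replicate 1, 2 or 4 (largest adjusted p 0.109).

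**Figure D2:**
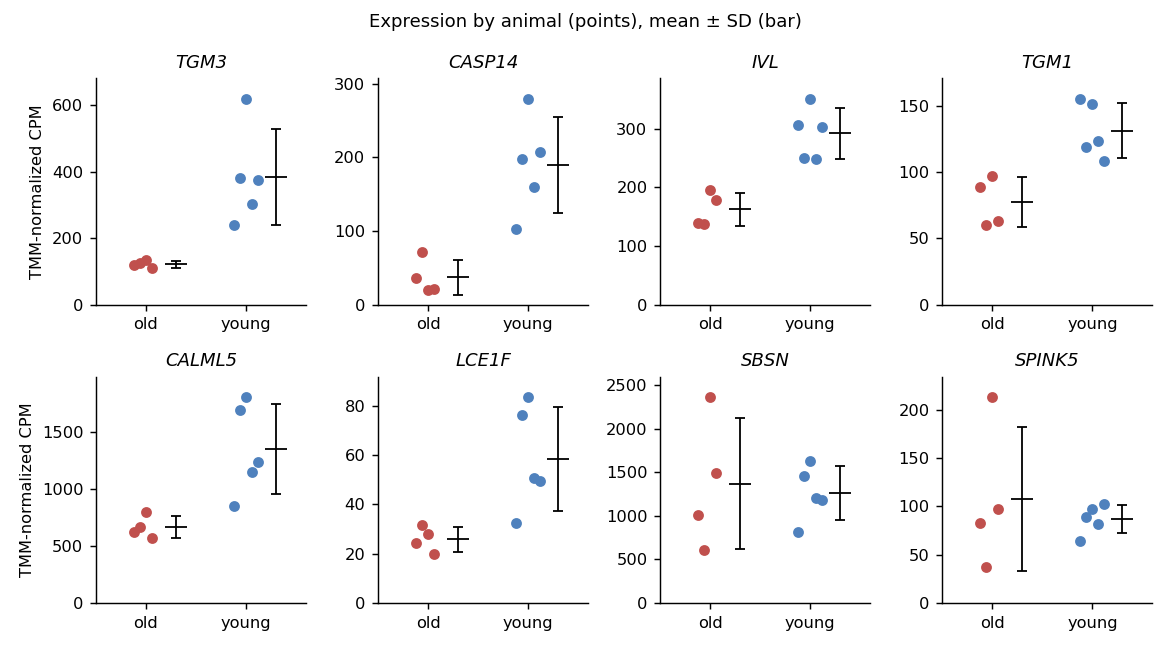
TMM-normalized CPM (y axis, from 0) in each animal for 8 cornified envelope genes, old animals left and young animals right; black bars give the mean and SD (n = 4 old, n = 5 young). Old and young points do not overlap in the first 6 panels, from TGM3 to LCE1F, and do so in SBSN and SPINK5, where old replicate 3 stands highest at 2360 and 213 CPM.

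Since TGM3 and CASP14 had the largest log2 fold changes among the genes that fell, the sequence before their annotated starts is shown. It covers 250 bases each from RefSeq's assembly GRCr8. TGM3 lies at chr3:137681559-137681808, plus strand, and CASP14 at chr7:11580089-11580338, plus strand. Capitals mark a TATAAA match, 37 bases before the start of TGM3; there was no capitalised match in the window of CASP14.
Tgm3: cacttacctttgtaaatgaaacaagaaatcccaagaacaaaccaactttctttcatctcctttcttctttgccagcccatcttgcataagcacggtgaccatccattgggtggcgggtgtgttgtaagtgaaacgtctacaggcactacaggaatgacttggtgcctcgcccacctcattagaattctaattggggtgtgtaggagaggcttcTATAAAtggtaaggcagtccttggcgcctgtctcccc
Casp14: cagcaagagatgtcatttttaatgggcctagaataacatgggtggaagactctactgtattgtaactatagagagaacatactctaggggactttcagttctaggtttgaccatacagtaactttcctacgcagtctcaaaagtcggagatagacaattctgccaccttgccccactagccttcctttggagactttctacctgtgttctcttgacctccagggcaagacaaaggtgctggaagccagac

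Of 12 structural protein genes tested, 3 fell and 9 did not pass, where 4.41% of all genes tested fell. The difference between enzymes and structural proteins was not tested. IVL encodes involucrin, a scaffold laid down early in envelope assembly. It had 139, 138, 195 and 178 CPM in old animals, against 307, 251, 351, 249 and 303 CPM in young animals. No old animal reached the young range, and the spread within each age was small (-0.85 ± 0.16, edgeR adjusted p = 0.0084). CNFN, which encodes the envelope component cornifelin, had 167, 79.9, 110 and 89.7 CPM in old animals, against 232, 234, 263, 200 and 151 CPM in young animals. Old replicate 1 overlapped young replicate 5 (-0.95 ± 0.24, edgeR adjusted p = 0.029), and the call was lost without any 1 of 7 libraries (adjusted p up to 0.103); it held without young replicate 5 or old replicate 1.

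The 2 most studied structural genes of this layer did not pass. LOR encodes loricrin, a glycine-rich protein that makes up much of the finished envelope. It had 494, 1156, 1078 and 1191 CPM in old animals, against 1033, 1905, 2746, 1476 and 2107 CPM in young animals. Old replicate 1 lay far below the rest, and the other old animals lay between the lowest young animal and the remaining young ones (-0.92 ± 0.34, edgeR adjusted p = 0.099; DESeq2 adjusted p = 0.0304). FLG encodes profilaggrin, the precursor of filaggrin. It had 22.9, 63.3, 118 and 20.5 CPM in old animals, against 88.1, 123, 360, 166 and 295 CPM in young animals. Old replicate 3 overlapped the young range (-1.88 ± 0.61, edgeR adjusted p = 0.071). FLG passed without old replicate 3 (-2.51, adjusted p = 0.0287) and by DESeq2 (adjusted p = 0.006).

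Late cornified envelope proteins are small proteins added late to the envelope, and their genes lie side by side. Of the 4 tested, LCE1F fell: it had 24.3, 31.5, 28.1 and 19.7 CPM in old animals, against 32.3, 76.4, 83.5, 50.8 and 49.4 CPM in young animals. The groups did not overlap, but the highest old and the lowest young animal nearly touched (-1.17 ± 0.27, edgeR adjusted p = 0.020). The LCE1F call was lost without old replicate 1 or 4 (adjusted p up to 0.074), without both libraries of even counts (0.104) and with a skeletal muscle score, the mean log2 CPM of a library's muscle markers, as a covariate (0.0935). LCE1M, the LCE gene with the highest mean CPM, had 103, 269, 352 and 265 CPM in old animals, against 188, 433, 656, 333 and 350 CPM in young animals, with wide overlap (-0.67 ± 0.40, edgeR adjusted p = 0.30). LCE1L and LCE6A had log2 fold changes of -0.78 ± 0.37 and -0.51 ± 0.23 and did not pass. LCE genes resemble each other, so reads may be split between them and single values are uncertain.

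The small proline-rich genes varied more between animals of 1 age than between ages. SPRR1A, whose product is a flexible cross-bridge between other envelope proteins, had 864, 290, 247 and 155 CPM in old animals, against 1617, 177, 264, 818 and 115 CPM in young animals. High animals, namely young replicates 1 and 4 and old replicate 1, occurred at both ages (-0.62 ± 0.81, edgeR adjusted p = 0.64). Without young replicate 1 the sign turned, to 0.22. Its close relative SPRR1B had 12.2, 1.70, 0.349 and 0.198 CPM in old animals, against 38.9, 6.04, 4.12, 8.73 and 2.62 CPM in young animals (-1.72 ± 1.19, edgeR adjusted p = 0.37). The value was -4.03 without old replicate 1 and -0.52 without young replicate 1. The same 3 animals were highest, and old replicates 3 and 4 had the lowest values. SPRR1A and SPRR1B can share reads, and RefSeq lists Sprr1b also as another name of Sprr1a, so the split between them is uncertain.

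The animals with the highest SPRR1A also had the highest expression of hair follicle genes. The inner root sheath is the sleeve that moulds a growing hair, and its 8 genes tested, keratins and trichohyalin, summed to 9480, 3426, 35.4 and 202 CPM in old animals, against 23485, 42.9, 3222, 8762 and 20.1 CPM in young animals. Young replicate 1, old replicate 1 and young replicate 4 led in that order, as they did for SPRR1A. Old replicate 2 and young replicate 3, with the next highest sums, had SPRR1A at 290 and 264 CPM. Old replicate 3, with a sum of 35.4 CPM, had SPRR1A at 247 CPM. The wound keratins KRT16 and KRT17 also summed highest in young replicate 1 (2157 CPM), old replicate 1 (2123 CPM) and young replicate 4 (1681 CPM). In the 19 genes of the hair shaft list the sums ran from 50.8 to 3377 CPM in old and from 48.4 to 9012 CPM in young animals. No gene of either hair list passed the test of age by edgeR or DESeq2, and none had an unadjusted p under 0.05. OVOL1 was also highest in young replicate 1 among young animals and in old replicate 1 among old animals. The part of hair growth, or of what raised the wound keratins, in these values was not tested.

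**Figure D3:**
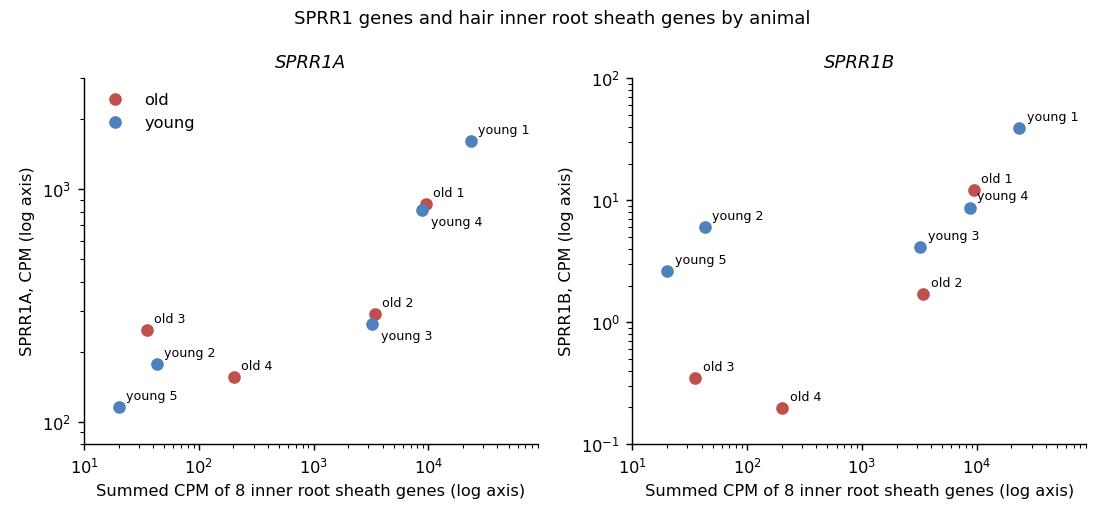
CPM of SPRR1A (left) and SPRR1B (right) in each animal (y axes, log scale) against the summed CPM of 8 inner root sheath genes (x axes, log scale), old animals in red and young in blue. Young replicate 1, old replicate 1 and young replicate 4 lie at the upper right of both panels, with SPRR1A at 1617, 864 and 818 CPM.

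Because SPRR1A and SPRR1B shared the same high animals, the 250 bases before their starts are shown together with those of LOR (Loricrin in RefSeq), from GRCr8. Sprr1a lies at chr2:180752626-180752875, minus strand, Sprr1b at chr2:180706356-180706605, minus strand, and Loricrin at chr2:180256573-180256822, minus strand. Capitals mark TGANTCA and TATAAA, both searched on both strands. N stands for any base, so TGANTCA takes in the AP-1 site but is looser than it. The match was TGAGTCA in Sprr1a and Loricrin and TGAATCA in Sprr1b. TGANTCA began 147 and 117 bases before the start of Sprr1a, 116 before that of Sprr1b and 51 before that of Loricrin. No match overlapped another in these windows.
Sprr1a: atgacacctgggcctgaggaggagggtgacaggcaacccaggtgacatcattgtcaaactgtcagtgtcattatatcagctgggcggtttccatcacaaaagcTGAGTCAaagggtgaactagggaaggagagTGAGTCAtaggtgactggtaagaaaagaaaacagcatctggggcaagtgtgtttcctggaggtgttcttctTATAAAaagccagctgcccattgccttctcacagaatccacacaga
Sprr1b: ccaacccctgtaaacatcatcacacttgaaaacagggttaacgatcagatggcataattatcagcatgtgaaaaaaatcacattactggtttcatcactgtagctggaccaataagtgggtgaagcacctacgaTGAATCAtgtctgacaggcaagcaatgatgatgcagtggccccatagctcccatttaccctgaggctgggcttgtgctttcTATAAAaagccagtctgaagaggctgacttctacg
Loricrin: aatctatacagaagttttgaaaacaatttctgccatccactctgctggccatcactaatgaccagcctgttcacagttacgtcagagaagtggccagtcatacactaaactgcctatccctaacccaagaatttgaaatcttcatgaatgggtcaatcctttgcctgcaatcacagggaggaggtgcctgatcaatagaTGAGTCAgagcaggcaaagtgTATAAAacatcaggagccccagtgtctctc

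RefSeq's promoter table matched 21 of the 24 genes, with 25 promoters. TGANTCA stood in 5 of the 25 promoters, against 6.34% of all 33469 promoter windows of the same 250 bases. These belonged to 5 of the 21 genes, LOR, RPTN, SBSN, SPRR1A and SPRR1B. None of these 5 was among the 8 genes that fell. The palindromic AACNNGTT, a loose pattern that takes in the site of grainyhead-like factors, stood in 3 of the 25 promoters, against 3.6% of all windows. Those 3 were of RPTN, SBSN and SPINK5. TATAAA stood in 9 of the 25, against 12.9%. These matches describe letters in a window and are not evidence of binding.

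Of the remaining structural genes, SBSN and RPTN did not pass. SBSN encodes suprabasin, a secreted protein of suprabasal keratinocytes. It had 1014, 605, 2360 and 1494 CPM in old animals, against 814, 1460, 1629, 1204 and 1184 CPM in young animals. The old animals spread to either side of the young range (0.12 ± 0.36, edgeR adjusted p = 0.85), and the sign turned without old replicate 3 (-0.25). RPTN, which encodes repetin, a fused S100 protein related to filaggrin, was scarce, at 0.308 to 2.85 CPM in old and 0.857 to 9.58 CPM in young animals (-1.43 ± 0.74, edgeR adjusted p = 0.23).

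CALML5, a calmodulin relative of differentiating keratinocytes, fell. It had 622, 661, 797 and 573 CPM in old animals, against 853, 1690, 1801, 1147 and 1233 CPM in young animals. All old animals lay below all young ones (-1.02 ± 0.24, edgeR adjusted p = 0.019), but the call was lost without old replicate 1 or 4 (adjusted p up to 0.0786), without both libraries of even counts (0.0697) and with the skeletal muscle score as a covariate (0.0631).

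Neither protease inhibitor passed. SPINK5 encodes LEKTI, which inhibits KLK7 and related kallikreins. It had 83.3, 36.8, 213 and 97.8 CPM in old animals, against 64.1, 89.3, 97.7, 81.5 and 102 CPM in young animals. The young animals were alike, while old replicate 3 was high and old replicate 2 low (0.31 ± 0.40, edgeR adjusted p = 0.64); without old replicate 3 the value was -0.23. CST6, which encodes cystatin M/E, an inhibitor of cysteine proteases of the cornified layer, stood at 326 to 677 CPM in old and 510 to 935 CPM in young animals (-0.60 ± 0.28, edgeR adjusted p = 0.19).

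None of the 3 transcription factors passed in the edgeR fit of all 9 libraries without a covariate. GRHL3, a grainyhead-like factor needed for barrier formation and known in mouse to act on Tgm1, had 45.4, 46.7, 71.9 and 48.4 CPM in old animals, against 56.3, 89.4, 124, 75.3 and 96.3 CPM in young animals. Old replicate 3 alone reached into the young range (-0.73 ± 0.23, edgeR adjusted p = 0.064), and GRHL3 passed without that library, without young replicate 1 and by DESeq2. OVOL1, a zinc finger factor that restrains keratinocyte proliferation, had 115, 79.8, 70.9 and 63.4 CPM in old animals, against 215, 108, 149, 143 and 97.3 CPM in young animals. Only old replicate 1 overlapped the young range (-0.79 ± 0.26, edgeR adjusted p = 0.072), and OVOL1 passed without it and by DESeq2. GRHL1 had 229, 114, 345 and 206 CPM in old animals, against 319, 250, 333, 285 and 236 CPM in young animals, with old replicate 3 above every young one (-0.35 ± 0.27, edgeR adjusted p = 0.43). The GRHL1 value was -0.61 without old replicate 3 and -0.13 without old replicate 2, and it passed with the skeletal muscle score as a covariate (-1.06, adjusted p = 0.0127). At an unadjusted p under 0.05, GRHL3 and OVOL1 were lower.

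Log2 ratios within a sample were compared for 6 pairs. KLK7 over SPINK5 averaged 1.34 ± 0.82 in old and 2.50 ± 0.24 in young animals (SD), a difference of -1.16 ± 0.42 (SE; two-sided exact permutation p = 0.0238, adjusted p = 0.0833). The ratios ran from 0.75 to 2.50 in old and from 2.20 to 2.81 in young animals, and the difference did not pass over the 6 pairs. TGM3 over TGM1 differed by -0.80 ± 0.29 and CASP14 over TGM1 by -1.69 ± 0.61 (exact permutation p = 0.0476 and 0.0317, adjusted p = 0.0833 for both). FLG over LOR differed by -1.12 ± 0.58 (exact permutation p = 0.0556, adjusted p = 0.0833), and by -0.64 without old replicate 4. LOR over IVL differed by -0.08 ± 0.34 and GRHL3 over GRHL1 by -0.26 ± 0.33 (exact permutation p = 0.778 and 0.444). The smallest p that 126 splits allow is 0.00794, and no pair passed after adjustment.

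Set against basal keratinocyte genes, most of the falls no longer passed. The basal list, 14 genes of the proliferating layer and its anchorage such as KRT5 and KRT14, summed to 6932 to 12467 CPM in old and 9835 to 17515 CPM in young animals. Among these genes KRT14 fell (-0.97 ± 0.23, edgeR adjusted p = 0.022), and KRT5 stood at -0.68 ± 0.23 (adjusted p = 0.082). With their summed counts as the scaling, 2 of the 22 cornified envelope genes fell, TGM3 (-1.13 ± 0.24, edgeR adjusted p = 0.0095) and CASP14 (-1.67 ± 0.49, adjusted p = 0.037), where 0.636% of all genes fell and 15.3% rose. In that scaling the median of the 22 genes was -0.38 and that of all genes 0.40. Per 1000 basal counts, TGM3 had 12.5, 17.8, 10.8 and 10.9 counts in old animals, against 24.2, 28.4, 35.3, 24.8 and 29.6 counts in young animals, with no overlap. CASP14 had 3.80, 10.3, 1.55 and 2.05 counts in old animals, against 10.4, 14.7, 15.9, 13.1 and 16.3 counts in young animals; the highest old animal lay just under the lowest young one. IVL overlapped on this scale, at 14.8 to 19.9 counts in old and 18.7 to 31.2 counts in young animals.

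**Figure D4:**
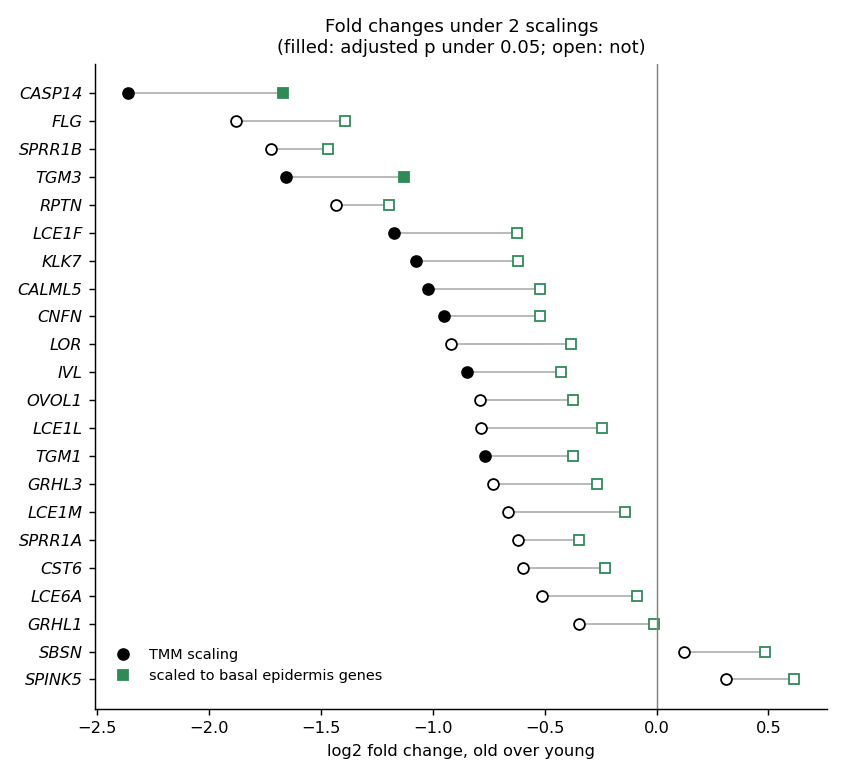
Log2 fold change, old over young (x axis), of the 22 cornified envelope genes with TMM scaling (black circles) and scaled to the summed counts of 14 basal epidermis genes (green squares); filled symbols passed an adjusted p of 0.05. All genes move to the right; CASP14, at -1.67, and TGM3, at -1.13, stay filled.

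Animals of 1 age differed across the set. Young replicate 3 had the highest young value in 15 of the 22 genes and young replicate 1 the lowest in 13. Old replicate 3 had the highest old value in 13 genes and old replicate 4 the lowest in 10. The summed basal epidermis genes were highest, within each age, in old replicate 3 and young replicate 3. They were lowest in old replicate 2, at 6932 CPM, and in young replicate 1, at 9835 CPM; old replicate 4 had the second highest old sum, at 10058 CPM. Skeletal muscle markers summed to 23636 CPM in old replicate 3, the lowest of the old animals, and reached 134085 CPM in old replicate 2. Of the 22 genes, 10 lie on rat chromosome 2, in the cluster that runs from LOR past the SPRR, IVL and LCE genes to FLG and RPTN in RefSeq, and 2 of these fell (median log2 fold change -0.88). Of the 12 on other chromosomes, 6 fell (median -0.78), where 4.41% of all genes tested fell; the difference between these groups was not tested.

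Related epidermal genes outside the set fell in part. In 9 lists with 110 tested genes, 22 fell and 2 rose, where 4.41% of all genes tested fell and 9.62% rose, and the median log2 fold change was -0.37. DESeq2 called 34 falls and 5 rises, where it called 8.57% and 12.9% of all genes. Of 9 genes of filaggrin processing and its relatives, 3 fell. BLMH, bleomycin hydrolase, which completes the breakdown of filaggrin into amino acids, averaged 125 ± 44.6 CPM in old and 371 ± 73.2 CPM in young animals (SD; -1.57 ± 0.25, SE, edgeR adjusted p = 0.0036). PRSS8, a membrane-anchored serine protease needed for the barrier, fell by 0.68 ± 0.18 and TMEM79, a protein of the lamellar granule system, by 0.76 ± 0.15 on the log2 scale.

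Of 12 other transglutaminases, proteases and inhibitors tested, 5 fell and 1 rose, where 4.41% of all genes tested fell and 9.62% rose. CSTA, which encodes the envelope-bound cystatin A, averaged 31.9 ± 7.10 CPM in old and 81.6 ± 18.4 CPM in young animals (-1.35 ± 0.20, edgeR adjusted p = 0.0030). The kallikrein genes KLK8 and KLK13 fell by 1.03 ± 0.24 and 2.86 ± 0.61, and KLK6 and KLK11 passed as well. LGMN, a lysosomal protease that macrophages also express, rose by 0.74 ± 0.14 (edgeR adjusted p = 0.0082). Of 17 barrier lipid genes, 6 fell, those with the smallest adjusted p being SDR9C7 (-1.11 ± 0.23), PNPLA1 (-0.69 ± 0.15), ABHD5 (-0.73 ± 0.16) and SULT2B1 (-1.15 ± 0.26).

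Of 16 S100 and small secreted proteins, 4 fell, where 4.41% of all genes tested fell and 9.62% rose. Besides CALML5 these were S100A14 (-0.93 ± 0.21), LYPD3 (-0.82 ± 0.18) and CALML3 (-0.91 ± 0.23). Of 28 transcription factors of differentiation, 3 fell by edgeR and 4 by DESeq2, where 4.41% and 8.57% of all genes did. JUNB, a partner in AP-1, averaged 70.9 ± 24.9 CPM in old and 145 ± 15.7 CPM in young animals (-1.03 ± 0.21, edgeR adjusted p = 0.012). CEBPB fell by 1.07 ± 0.29 and the lipid-sensing receptor PPARD by 0.72 ± 0.13. Of 6 suprabasal keratins, KRT1, of the keratin pair that marks differentiating cells, fell, with 4625 ± 1341 CPM in old and 15368 ± 6848 CPM in young animals (-1.73 ± 0.39, edgeR adjusted p = 0.018). Its partner KRT10 stood at -1.17 ± 0.37 (edgeR adjusted p = 0.064), and KRT77 rose by 3.87 ± 0.70. KRT77 varied widely, from 361 to 8347 CPM in old and from 216 to 431 CPM in young animals, so the groups overlapped. None of 8 plaque and corneodesmosome genes passed by edgeR, where 2 were lower at an unadjusted p under 0.05 and DESeq2 called 1; the median was -0.45. Neither of 2 wound keratins passed, by edgeR, DESeq2 or at an unadjusted p under 0.05.

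Markers of other cells moved with age as well, where 9.62% of all genes tested rose and 4.41% fell. Of 11 adipocyte markers tested, 9 rose, and the list summed to 3224 to 6488 CPM in old and 663 to 1235 CPM in young animals. All 12 macrophage and monocyte markers rose, with sums of 646 to 1340 CPM in old and 166 to 340 CPM in young animals. Of 7 fibroblast genes 4 rose, and of 12 sebaceous gland genes 4 fell and 1 rose. Of 8 T cell markers 5 rose, and of 6 melanocyte markers 2 fell. Among 16 skeletal muscle markers 4 fell and 1 rose. PNPLA2 of the adipocyte list had no counts in any library. With the adipocyte score as a covariate no cornified envelope gene passed by edgeR, 0 had an unadjusted p under 0.05, and the median of the 22 was -0.05; no gene of the whole table passed in that model either. In it the 8 genes that had fallen stood at -0.90 ± 0.47 (IVL), -1.02 ± 0.73 (CNFN), -0.70 ± 0.53 (TGM1), -0.54 ± 1.04 (CASP14), -0.51 ± 0.64 (TGM3), 0.10 ± 0.59 (CALML5), 0.45 ± 0.60 (KLK7) and 0.49 ± 0.57 (LCE1F) (SE), with larger errors than without the covariate. With the skeletal muscle score as a covariate 9 fell, where 5.1% of all genes did: CALML5 and LCE1F no longer passed (edgeR adjusted p = 0.0631 and 0.0935), while CST6, GRHL1 and OVOL1 did (0.0375, 0.0127 and 0.0406). Because the adipocyte sums of old and young animals did not overlap, the model with the adipocyte score cannot tell age and that score apart. The part of these cells in the falls was not tested.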

How the data were processed

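Polyadenylated RNA of skin was sequenced with a library kit that does not mark strand, per the labels' protocols. The authors deposited raw read counts per gene symbol in 1 table, with no normalization; BWA is named in the submitters' processing notes, while genome build, annotation and counting rule are unnamed in the sources used here. Reads of overlapping genes therefore cannot be told apart. Columns were matched to samples by title and groups taken from the labelled age; the shared replicate numbers mark different animals.

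Genes passing filterByExpr (minimum count 10, minimum total 15; 14933 genes) were tested with edgeR 4.0.16 in R 4.3.3 by the quasi-likelihood test with TMM scaling, no covariate and Benjamini-Hochberg adjustment at 0.05 over all of them. Fold changes are old over young. The SE, worked back from the F statistic, is approximate. CPM are TMM-normalized, and n is 4 old and 5 young. Scores used as covariates are mean log2 CPM with a prior count of 2. Ratios are log2 of CPM + 0.5. Alternatives were DESeq2 1.42.0, other scalings and filters, a replicate block, covariates, thinning and leaving out libraries. Dividing the even counts by 2, and leaving out both libraries that hold them, were added after seeing the data. The fit was tested on simulated counts. Figures were drawn with matplotlib 3.10.9. Symbols were matched to RefSeq's GRCr8 table, 22 as symbols and 2 as synonyms (LOR and LCE1L).

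The genes and lists were chosen with earlier results of these data known. Per-animal values are given for genes past the threshold, for 11 genes named by role (IVL, LOR, FLG, TGM1, TGM3, CASP14, KLK7, SPINK5, GRHL1, GRHL3 and OVOL1) and for the SPRR and LCE gene with the highest mean CPM. Of each epidermal list the up to 4 called genes with the smallest adjusted p are named, with KRT5, KRT14, KRT1 and KRT10. SBSN, SPRR1B, KLK6 and KLK11 were named after their values were seen. No library repeated another of its age, the smallest chi-square per degree of freedom being 31.6. Depth limits the precision of scarce genes such as RPTN and SPRR1B.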

Additional observations from a re-analysis of the deposited data

Results flagged for a closer look

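Within an age, 4 values lay far from the others of their group. GRHL3 was high in old replicate 3, at 71.9 CPM, where the other old animals had 45.4 to 48.4 CPM. LOR was low in old replicate 1, at 494 CPM, where the other old animals had 1078 to 1191 CPM. SPRR1B was high in old replicate 1, at 12.2 CPM, and in young replicate 1, at 38.9 CPM. These were the old and the young animal with the highest sums of inner root sheath genes and of wound keratins. The 4 values came from 44 groups looked at, of which chance would flag about 1 in 20.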

How the results depend on the processing

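The count of cornified envelope genes that fell, 8, was 12 by DESeq2, 5 with library totals alone, 2 scaled to basal epidermis genes, 0 with the adipocyte score as a covariate and 3 to 10 with 1 library left out; the count that rose was 0 throughout. With a replicate block it was 14, but the numbers do not pair the animals: same-numbered animals correlated at -0.471 to 0.673, and no partner is named in the labels. Over all genes, 1437 rose and 659 fell. These counts were 2283 and 95 scaled to basal epidermis genes and 0 and 0 with the adipocyte score (519 and 146 at an unadjusted p under 0.05). The falls numbered 1280 by DESeq2, 312 with library totals alone, 437 without old replicates 1 and 3, and 236 to 786 with 1 library left out; the rises were then 1024 to 1573.

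With the adipocyte score the log2 fold change turned positive for CALML5 (0.10), FLG (1.02), GRHL3 (0.27), KLK7 (0.45), LCE1F (0.49), LCE1L (0.65), LCE1M (1.33), LCE6A (0.37) and LOR (0.12). SBSN turned to -0.0101 with a replicate block, -0.46 with the muscle score, -0.24 without old replicates 1 and 3 and -0.25 without old replicate 3; SPINK5 turned to -0.51, -0.34 and -0.23 under the last 3 of these. With 1 library left out, SBSN ran from -0.25 to 0.37, SPINK5 from -0.23 to 0.60, SPRR1A from -1.33 to 0.22 (positive without young replicate 1) and LOR over IVL from -0.29 to 0.15 (positive without young replicate 2 or 3 or old replicate 1). The other pairs kept their direction in all 12 alternatives, and none passed; in the paired form with 4 differences none could. The cause of these shifts was not tested.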
